A study of Mus musculus with 6 samples.

Results

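The genes described here are 48 genes of the actin cytoskeleton and of podosomes, the actin-rich adhesion structures of macrophages. They were taken by name, as every probe set whose platform gene symbol contained a member, with the brightest probe set standing for the gene. Of the 48, 46 had a value among 20189 tested probe sets, 44 of them on a probe set that names 1 gene. Diap1 was found under its current symbol Diaph1, and Actr2 and Arpc3 were not analysed here. Both groups were bone marrow derived macrophages of C57BL/6 mice, grown for 7 days with CSF1 (M-CSF) to give M(CSF1) cells or with CSF2 (GM-CSF) to give M(CSF2) cells, sorted, and measured on Affymetrix Mouse Gene 1.0 ST arrays with 3 biological replicates each. The marker used for sorting, and whether the replicates came from separate mice, are not stated in the labels, and the p-values reflect variation among these 6 arrays, which may be partly technical. All values are deposited log2 signals, differences are M(CSF2) minus M(CSF1), and calls rest on a Benjamini-Hochberg adjusted p of less than 0.05 from limma over all 20189 probe sets.

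Actin filaments grow when nucleators such as the Arp2/3 complex, switched on by WASP, start branches, and when formins and Ena/VASP proteins extend filament ends. Cofilin and its partners take filaments apart, and bundling, capping and myosin motor proteins shape them. A podosome has a core of branched actin surrounded by a ring of talin, vinculin and paxillin that links integrins to filaments. Macrophages and dendritic cells use podosomes to adhere, migrate and degrade matrix.

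Most of these genes differed between the growth factors, and the larger share was lower with CSF2. In M(CSF2) cells 25 of the 46 measured members were lower, 9 were higher and 12 were not called. Over all probe sets, 15.7% were called lower and 12.0% higher, against 54.3% and 19.6% of the members. Called shares were higher among bright probe sets, and 34 members had a mean signal of 8 or more. Among the 1575 probe sets that bright, 35.4% were called lower and 29.0% higher, while of the 34 members 64.7% were called lower and 14.7% higher. The median member difference was -0.37, and -0.45 for the 34 bright members, beside 0.04 over all probe sets and -0.07 over the 1575. In these bulk samples, fewer cells of a type and less RNA per cell cannot be told apart.

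**Figure D1:**
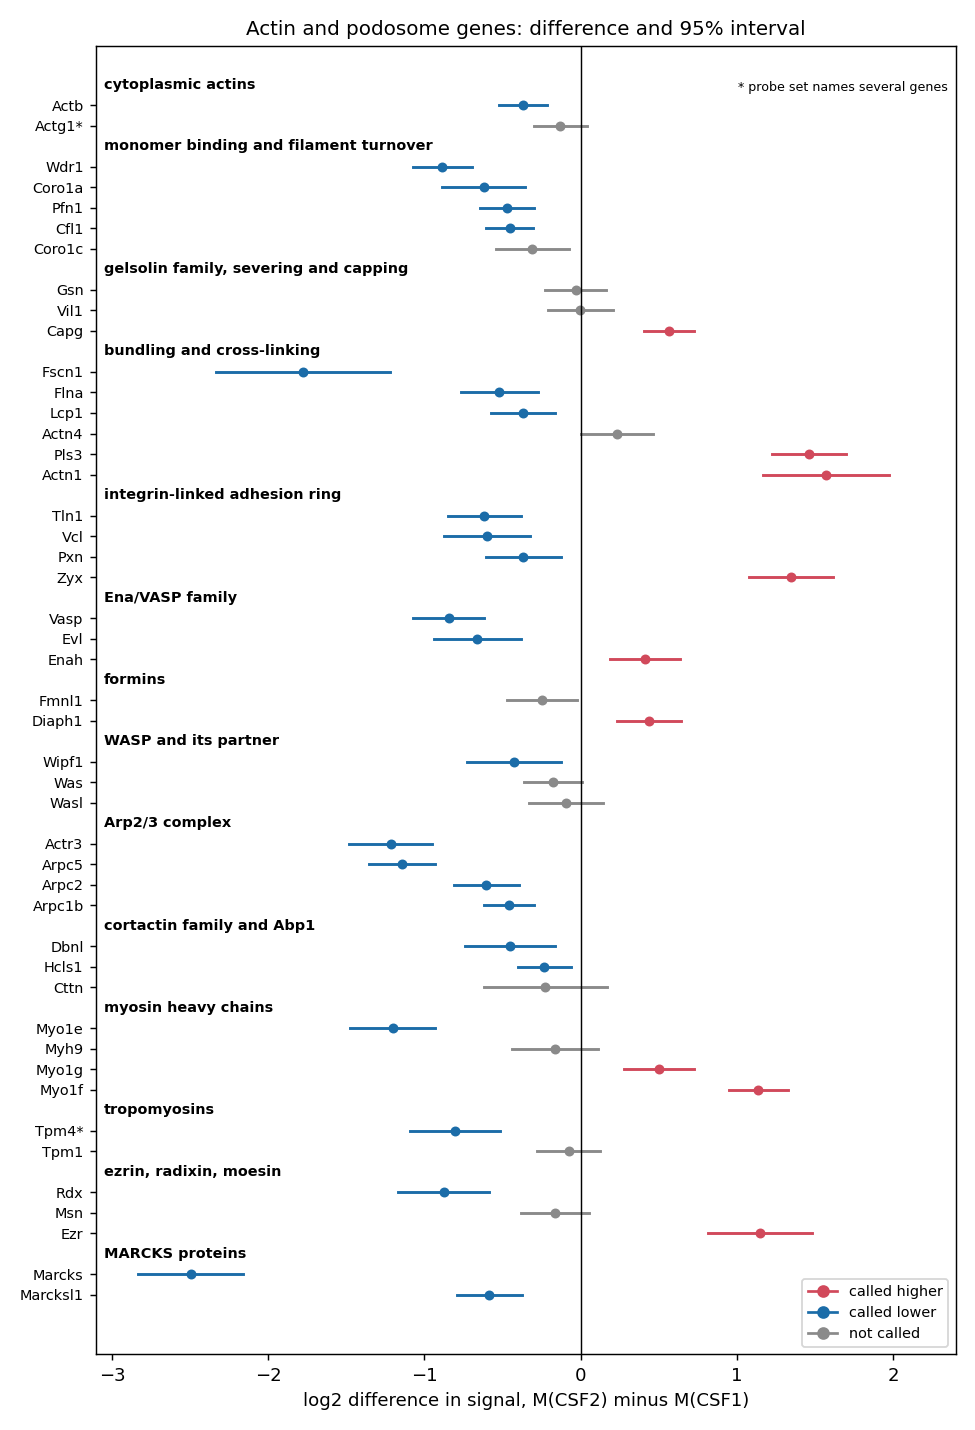
Log2 difference in signal, M(CSF2) minus M(CSF1), for the 46 measured members by role, with the 95% interval from limma (3 arrays per group). Blue marks the 25 genes called lower, red the 9 called higher and grey the 12 not called. An asterisk marks a probe set that names several genes. Marcks lies farthest to the left at -2.50 and Actn1 farthest to the right at 1.57.

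Both MARCKS genes were lower, and Marcks showed the largest fall among the members. Marcks encodes a membrane-bound protein kinase C substrate that binds actin and shields phosphoinositides. It read 8.54, 8.19 and 8.16 on the M(CSF1) arrays and 5.86, 5.55 and 5.99 on the M(CSF2) arrays, a difference of -2.50 (SE 0.14, adjusted p = 1.2e-05). This is a 5.64-fold lower signal (95% interval 4.47 to 7.11), and every M(CSF2) array lay more than 2 log2 units below every M(CSF1) array. Its smaller relative Marcksl1 read 9.86, 9.87 and 9.90 on the M(CSF1) arrays and 9.29, 9.45 and 9.14 on the M(CSF2) arrays. Its groups did not overlap either, at -0.58 (SE 0.09, adjusted p = 0.00179).

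All 4 measured members that encode subunits of the Arp2/3 complex, which nucleates branched filaments, fell. Actr3, which encodes the actin-related protein Arp3, read 10.002, 9.86 and 9.84 on the M(CSF1) arrays and 8.62, 8.52 and 8.92 on the M(CSF2) arrays. It was 2.32-fold lower (95% interval 1.93 to 2.79, adjusted p = 1.4e-04). Arpc5, a small subunit, read 10.37, 10.29 and 10.19 on the M(CSF1) arrays and 9.13, 9.01 and 9.28 on the M(CSF2) arrays, which is 2.21-fold lower (adjusted p = 6.1e-05). For both genes the groups lay about a full log2 unit apart with no overlap. Arpc2, which contacts the mother filament, fell by 0.60 (SE 0.09, adjusted p = 0.00157). Arpc1b, the form of the Arpc1 subunit that prevails in blood cells, fell by 0.46 (adjusted p = 0.00172). Its second probe set gave -0.46 as well (adjusted p = 0.00195 over all 28941 probe sets). Among 3 further measured subunits Arpc4 fell by 0.48 (adjusted p = 0.00287) and the other 2 were not called. The paralog of Arpc1b, Arpc1a, named here after its values were seen, gave 0.31 (95% interval 0.06 to 0.56, adjusted p = 0.0719). All M(CSF2) arrays of Arpc1a lay above its M(CSF1) arrays, by a very narrow margin.

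Of WASP, N-WASP and their partner WIP, which act on Arp2/3, only WIP was called. Was, which encodes the blood-cell protein WASP that podosomes require, gave -0.18 (95% interval -0.36 to 0.01, adjusted p = 0.156). Its groups did not overlap. It passed without M(CSF1) replicate 3 (-0.24, adjusted p = 0.0402). The widely expressed Wasl (N-WASP) gave -0.09 (95% interval -0.33 to 0.14, adjusted p = 0.556), with overlapping groups. Wipf1 (WIP), which stabilises WASP, read 7.89, 7.65 and 7.60 on the M(CSF1) arrays and 7.23, 7.11 and 7.53 on the M(CSF2) arrays. It was called lower at -0.43 (SE 0.13, adjusted p = 0.0421), a call close to the threshold. It was lost in 5 of 6 fits with 1 array left out, with an adjusted p of 0.153, 0.106 and 0.0621 when M(CSF1) replicates 1, 2 and 3 were left out in turn and 0.148 and 0.143 for M(CSF2) replicates 1 and 2, with differences from -0.48 to -0.34.

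Of cortactin and its relatives, which bind Arp2/3 and filaments, 2 of 3 were called lower by small amounts. The blood-cell form Hcls1 fell by 0.23 (SE 0.07, adjusted p = 0.0491), and Dbnl (Abp1), an adaptor between actin and endocytosis, fell by 0.45 (SE 0.12, adjusted p = 0.0282). Both calls lay near the threshold, and each held in 1 of 6 fits with 1 array left out. Hcls1 was not called in 5 fits, with an adjusted p of 0.101, 0.15008 and 0.0605 when M(CSF1) replicates 1, 2 and 3 were left out in turn and 0.106 and 0.114 for M(CSF2) replicates 1 and 2. Dbnl was not called in 5 fits, with an adjusted p of 0.0668 and 0.0940 when M(CSF1) replicates 1 and 2 were left out in turn and 0.117, 0.0842 and 0.0550 for M(CSF2) replicates 1, 2 and 3. Their values there ran from -0.25 to -0.19 for Hcls1 and from -0.50 to -0.33 for Dbnl. Cttn, the cortactin gene itself, gave -0.22 (95% interval -0.62 to 0.17, adjusted p = 0.395), with overlapping groups.

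Actb and 4 of 5 genes for monomer binding and filament turnover were also lower, by moderate amounts. Actb, the beta-actin gene, read 12.92, 12.88 and 12.93 on the M(CSF1) arrays and 12.51, 12.51 and 12.61 on the M(CSF2) arrays, a difference of -0.37 (SE 0.07, adjusted p = 0.00424). Every probe set of Actg1, the gamma-actin gene, also names Actb, so Actg1 has no value of its own. The shared probe set that stood for it gave -0.13 (95% interval -0.30 to 0.04, adjusted p = 0.248), and after quantile normalization -0.29 (adjusted p = 0.0197). On those shared probe sets beta- and gamma-actin cannot be told apart. When all probe sets of Actb were averaged, shared ones included, Actb was -0.17 and not called (adjusted p = 0.102).

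Wdr1 (AIP1), which speeds the filament disassembly begun by cofilin, fell most in this role. It read 11.07, 10.95 and 10.82 on the M(CSF1) arrays and 10.05, 10.03 and 10.11 on the M(CSF2) arrays, which is 1.85-fold lower (95% interval 1.62 to 2.11, adjusted p = 1.3e-04). Cofilin itself, Cfl1, read 12.31, 12.30 and 12.29 on the M(CSF1) arrays and 11.83, 11.80 and 11.90 on the M(CSF2) arrays, and fell by 0.45 (adjusted p = 0.00120). The M(CSF1) arrays of Cfl1 were close to each other, and all M(CSF2) arrays lay below them. Profilin, Pfn1, which feeds actin monomers to growing ends, fell by 0.47 (SE 0.07, adjusted p = 0.00215). The leukocyte coronin Coro1a, which acts on Arp2/3 branches, fell by 0.62 (SE 0.11, adjusted p = 0.00477). Coro1c, a widely expressed coronin, was not called at -0.31 (95% interval -0.54 to -0.08, adjusted p = 0.0562), though its groups did not overlap. It passed without M(CSF1) replicate 3 (-0.38, adjusted p = 0.0410), and likewise without M(CSF2) replicate 3 (-0.39, adjusted p = 0.0325).

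Several families held members called in opposite directions. Among the proteins that bundle or cross-link filaments, Fscn1, Flna and Lcp1 fell while Actn1 and Pls3 rose. Fscn1 (fascin), which packs filaments into the parallel bundles of filopodia and of mature dendritic cell protrusions, read 10.02, 9.49 and 9.05 on the M(CSF1) arrays and 7.83, 7.93 and 7.47 on the M(CSF2) arrays. It was 3.43-fold lower (95% interval 2.33 to 5.04, adjusted p = 9.3e-04). The M(CSF1) arrays of Fscn1 had the widest spread of any member in that group, with replicate 1 highest, and still all lay above the M(CSF2) arrays.

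The plastins, bundlers with paired actin-binding domains, split. Pls3 (T-plastin), best known from non-blood cells, read 5.62, 5.49 and 5.69 on the M(CSF1) arrays and 7.07, 6.90 and 7.23 on the M(CSF2) arrays, a 2.76-fold higher signal (95% interval 2.34 to 3.25, adjusted p = 3.0e-05). Lcp1 (L-plastin), the leukocyte form, fell by 0.37 (SE 0.09, adjusted p = 0.0154), a call lost without M(CSF1) replicate 1 (-0.36, adjusted p = 0.0588) and without M(CSF1) replicate 2 (-0.35, adjusted p = 0.0674). Of the alpha-actinins, which cross-link antiparallel filaments, Actn1 read 7.83, 7.37 and 7.28 on the M(CSF1) arrays and 9.21, 8.78 and 9.20 on the M(CSF2) arrays. It rose 2.97-fold (95% interval 2.24 to 3.92, adjusted p = 3.3e-04), the largest rise among the members. Actn4 gave 0.23 (95% interval 0.00 to 0.46, adjusted p = 0.133), with overlapping groups, and passed without M(CSF2) replicate 2 (0.32, adjusted p = 0.0304). Flna (filamin A), which joins filaments into networks and binds integrin tails, fell by 0.52 (SE 0.10, adjusted p = 0.00724).

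The ezrin, radixin and moesin genes, whose products tie filaments to the plasma membrane, also split. Ezr read 7.14, 7.04 and 6.67 on the M(CSF1) arrays and 8.17, 7.90 and 8.23 on the M(CSF2) arrays, a 2.22-fold rise (95% interval 1.76 to 2.79, adjusted p = 6.1e-04). Rdx read 7.74, 7.76 and 7.71 on the M(CSF1) arrays and 6.95, 6.57 and 7.06 on the M(CSF2) arrays, a 1.84-fold fall (adjusted p = 0.00129). Neither gene had overlapping groups, so ezrin and radixin moved in opposite directions on the same arrays. Msn (moesin) gave -0.16 (95% interval -0.38 to 0.05, adjusted p = 0.259), with overlapping groups.

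Class I myosins link membrane to actin, and 3 of them are members. Myo1e, a long-tailed form found in podosomes, read 9.75, 9.61 and 9.37 on the M(CSF1) arrays and 8.49, 8.22 and 8.41 on the M(CSF2) arrays. It fell by 1.20 (SE 0.12, adjusted p = 1.7e-04). Myo1f, its leukocyte relative, read 8.33, 8.36 and 8.28 on the M(CSF1) arrays and 9.54, 9.32 and 9.52 on the M(CSF2) arrays. It was 2.20-fold higher (adjusted p = 3.3e-05), so that the closely related pair moved oppositely. The short-tailed blood-cell form Myo1g rose by 0.50 (SE 0.10, adjusted p = 0.00543). Myh9, the heavy chain of the contractile non-muscle myosin IIA, gave -0.16 (95% interval -0.44 to 0.11, adjusted p = 0.377), and its groups overlapped.

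**Figure D2:**
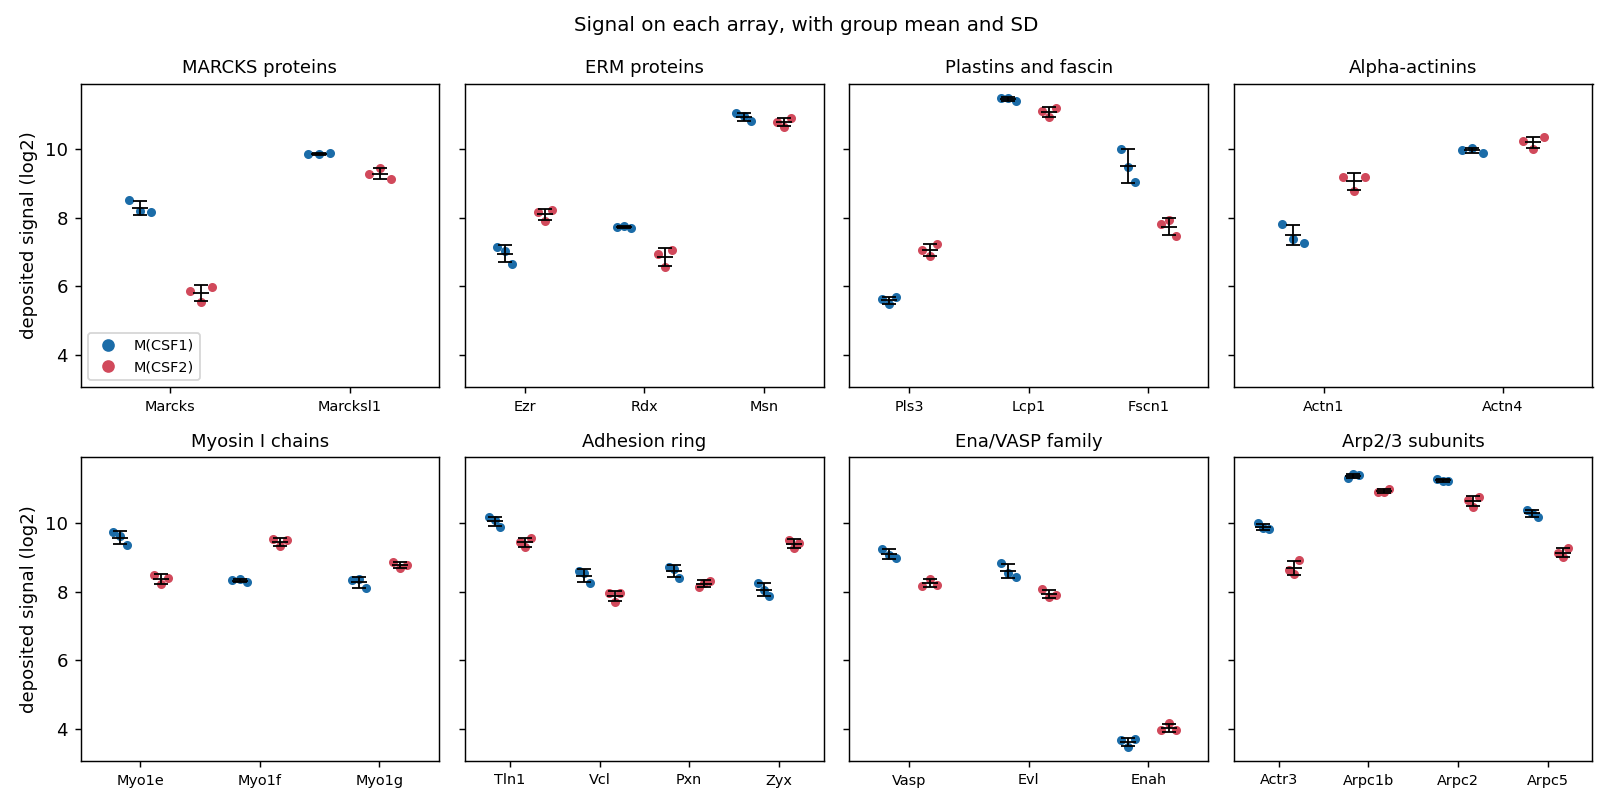
Deposited log2 signal on each of the 3 M(CSF1) arrays (blue) and 3 M(CSF2) arrays (red) for the members of 8 families or complexes, with bars for the mean and SD. Ezr rises where Rdx falls, Myo1f rises where Myo1e falls and Zyx rises where Tln1, Vcl and Pxn fall. Signals of different genes come from different probes, so their heights cannot be compared.

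In the ring that joins integrins to actin, 3 of 4 genes fell and 1 rose. Tln1 (talin), which activates integrins, fell by 0.62 (SE 0.10, adjusted p = 0.00261), and Vcl (vinculin), which reinforces the talin link, fell by 0.60 (SE 0.12, adjusted p = 0.00670). Pxn (paxillin), a scaffold for adhesion signalling, was -0.37 (SE 0.10, adjusted p = 0.0321). Its call was lost in 5 fits, with an adjusted p of 0.116 and 0.126 when M(CSF1) replicates 1 and 2 were left out in turn and 0.120, 0.0826 and 0.0539 for M(CSF2) replicates 1, 2 and 3, with differences from -0.41 to -0.30. Zyx (zyxin), a LIM-domain protein that brings Ena/VASP proteins to stressed filaments, read 8.25, 8.05 and 7.87 on the M(CSF1) arrays and 9.52, 9.27 and 9.43 on the M(CSF2) arrays. It was 2.55-fold higher (95% interval 2.11 to 3.07, adjusted p = 8.6e-05), and its M(CSF2) arrays all lay about a log2 unit or more above its M(CSF1) arrays.

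Of the Ena/VASP proteins, which extend filament ends and bind zyxin, 2 fell and 1 rose. Vasp read 9.24, 9.08 and 8.97 on the M(CSF1) arrays and 8.18, 8.38 and 8.20 on the M(CSF2) arrays, a 1.80-fold fall (adjusted p = 4.1e-04), and Evl, the form enriched in blood cells, fell by 0.66 (SE 0.12, adjusted p = 0.00439). Enah (Mena) was called higher, from 3.61 ± 0.13 to 4.02 ± 0.12 (SD, n = 3 arrays each, adjusted p = 0.0147). These signals lie close to 3.37, the 95th percentile of 1016 olfactory receptor probe sets, which serves as an empirical floor. The call of Enah was lost without M(CSF1) replicate 2 (0.34, adjusted p = 0.0575). M(CSF2) replicates 1 and 3 had exactly equal values for Enah, 3.95. Of the formins, which build unbranched filaments, Diaph1 (mDia1) rose by 0.44 (SE 0.09, adjusted p = 0.00742). The leukocyte formin Fmnl1 gave -0.25 (95% interval -0.47 to -0.02, adjusted p = 0.103), with overlapping groups, and passed without M(CSF2) replicate 2 (-0.32, adjusted p = 0.0482).

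Of the 3 members from the gelsolin family, which sever or cap filaments, only Capg was called. Capg, first described as a macrophage capping protein, read 10.12, 10.18 and 10.06 on the M(CSF1) arrays and 10.70, 10.63 and 10.72 on the M(CSF2) arrays. It rose by 0.57 (SE 0.07, adjusted p = 5.3e-04). Gsn (gelsolin) gave -0.03 (95% interval -0.23 to 0.16, adjusted p = 0.834), with overlapping groups. Vil1 (villin), known from the intestinal brush border, was near the floor at 3.76 and 3.76 (adjusted p = 0.993). Tropomyosins coat filaments and regulate myosin access. The probe set that stood for Tpm4 fell by 0.80 (SE 0.12, adjusted p = 0.00199) but also names Gm7809, and the probe set that names Tpm4 alone gave -0.79 (adjusted p = 0.00479 over all 28941 probe sets). Tpm1 gave -0.08 (95% interval -0.28 to 0.13, adjusted p = 0.580), with overlapping groups.

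Arrays of a group differed from each other in a shared way across these genes. M(CSF1) replicate 3 was the lowest of its group for 40 of the 46 members, beside 38.1% of all probe sets, and M(CSF1) replicate 1 was the highest for 30, beside 39.1% of all. M(CSF2) replicate 2 was the lowest of its group for 33 members, beside 34.8% of all probe sets. The shares of all probe sets were not matched for brightness, and 44 members lay at or above the median signal. Where arrays had equal values, the first of them was counted. The median deviation of the members from their group mean was 0.09 on M(CSF1) replicate 1, -0.12 on M(CSF1) replicate 3 and -0.09 on M(CSF2) replicate 2. Over all probe sets the median deviation of each array was within 0.01. These shifts are smaller than the median member difference of -0.37, which ran from -0.40 to -0.32 with an array left out. With an array left out the fits called between 20 and 25 members lower and between 8 and 10 higher. Since 39.1% of all probe sets had groups that do not overlap, 19.2% higher and 19.9% lower, the 9 members wholly above and 28 wholly below are read against those shares.

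**Figure D3:**
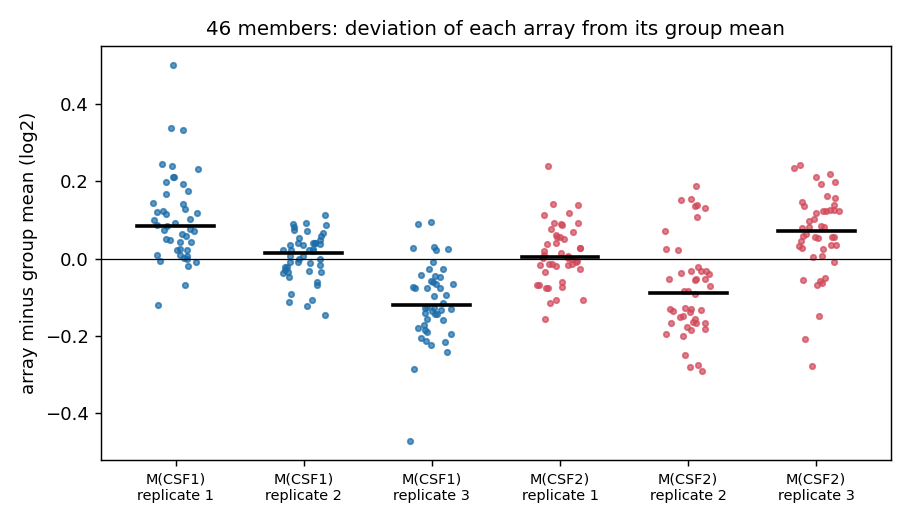
Deviation of each array from its group mean, in log2 units, for the 46 measured members (points), with the median as a black line. The points of M(CSF1) replicate 3 and M(CSF2) replicate 2 lie mostly below 0, with medians of -0.12 and -0.09.

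Promoter sequence was examined because many actin genes are known targets of SRF, a factor that binds the CArG box and is switched on when its MRTF coactivators are released from actin monomers. RefSeq promoter windows (GRCm38.p6, 250 bases before to 50 after each start) were matched by symbol for 43 of the 48 members, in 53 windows. A CArG box occurred in 4 of the 53 (7.55%), in Actg1, Myo1e, Vcl and Vil1, and in 535 of all 32851 windows (1.63%). The motif reads the same on both strands and overlapped neither of the other motifs searched. The 8-letter GAGGAAGT, a form of the site of the myeloid factor PU.1, was found on either strand in 2 member windows (3.77%, beside 3.20% of all). TGANTCA, a looser form of the AP-1 site that also reads the same on both strands, was found in 4 (7.55%, beside 7.81%), those of Actn4, Ezr, Hcls1 and Zyx. The match was the AP-1 site TGACTCA in Ezr and Hcls1 and TGAGTCA in Zyx. In Actn4 it was TGAATCA, which departs from that site, and both shares include such matches. Windows with a CArG box are shown for Vcl and Myo1e, which fell, and for Actg1, and windows with TGANTCA for Zyx and Ezr, which had the largest differences of the 4 genes with that motif. Capitals mark the motif, the sequence runs 5′ to 3′ on the gene's strand, and no base after the start is shown.
Vcl: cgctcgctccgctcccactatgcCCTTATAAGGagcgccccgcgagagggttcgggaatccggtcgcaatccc
Myo1e: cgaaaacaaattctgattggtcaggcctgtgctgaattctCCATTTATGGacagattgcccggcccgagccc
Actg1: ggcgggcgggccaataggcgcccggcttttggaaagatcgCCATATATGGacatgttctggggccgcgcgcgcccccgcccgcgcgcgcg
Zyx: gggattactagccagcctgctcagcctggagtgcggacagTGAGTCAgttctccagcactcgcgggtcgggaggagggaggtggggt
Ezr: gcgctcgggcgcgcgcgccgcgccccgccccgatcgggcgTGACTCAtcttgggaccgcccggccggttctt

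The windows lie at chr14:20929148-20929220, plus strand for Vcl, chr9:70207278-70207349, plus strand for Myo1e, chr11:120348536-120348625, minus strand for Actg1, chr6:42349667-42349753, plus strand for Zyx and chr17:6782781-6782852, minus strand for Ezr. The CArG box begins 227 bases before the start in Vcl, 32 in Myo1e and 90 in Actg1. TGANTCA begins 121 bases before the start in Zyx and 32 in Ezr. Of the genes with a CArG box, Vcl fell by 0.60, Myo1e fell by 1.20, and Vil1 and the probe set that stood for Actg1 were not called. Of those with TGANTCA, Zyx and Ezr rose by 1.35 and 1.15, Hcls1 fell by 0.23 and Actn4 was not called at 0.23. Of the factors themselves, the coactivators Mrtfa and Mrtfb were lower, at -0.75 (SE 0.13, adjusted p = 0.00314) and -0.60 (SE 0.13, adjusted p = 0.0107). Mrtfb lost its call without M(CSF1) replicate 1 (-0.56, adjusted p = 0.0573) and without M(CSF1) replicate 2 (-0.59, adjusted p = 0.0560). Srf, named after its values were seen, gave -0.18 (95% interval -0.42 to 0.07, adjusted p = 0.278). A match to these letters is a description of the window, and binding was not measured.

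The wider actin machinery was covered by 10 further lists of 139 genes, of which 132 had a value. Of these, 37 were lower (28.0%, beside 15.7% of all probe sets), 24 were higher (18.2%, beside 12.0%) and 71 were not called, with a median difference of -0.07. Among probe sets with a mean signal of 8 or more, 35.4% were called lower and 29.0% higher. The shares of the 132 genes were not matched for brightness. The lists did not all have more genes lower than higher. Genes named from them by value were called unless an adjusted p above 0.05 is given.

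The WAVE complex, which activates Arp2/3 downstream of Rac, had 6 of 10 measured genes lower and 1 higher. Abi1 and Wasf2 each fell by more than 1 log2 unit, at -1.09 (adjusted p = 2.5e-04) and -1.08 (adjusted p = 7.1e-05). Nckap1, the form of a WAVE subunit outside blood cells, was 0.71 (SE 0.19, adjusted p = 0.0299). It lost its call in 4 fits, with an adjusted p of 0.105 when M(CSF1) replicate 2 was left out and 0.104, 0.0876 and 0.101 for M(CSF2) replicates 1, 2 and 3, at 0.66 to 0.74. Among 13 other WASP partners 3 were lower and 1 higher. Fnbp1l (Toca-1), a membrane-bending protein that activates N-WASP, read 8.69, 8.51 and 8.42 on the M(CSF1) arrays and 4.33, 4.12 and 4.14 on the M(CSF2) arrays. It was 20.3-fold lower (95% interval 17.4 to 23.7, adjusted p = 2.8e-07), the largest fall in the 10 lists. The M(CSF2) mean of Fnbp1l, 4.20, was about the median signal of all tested probe sets, 4.25, so the size of its fall is less certain. Pstpip1, a WASP-binding adaptor, fell by 0.77 (adjusted p = 0.00280), and its relative Pstpip2 rose by 0.47 (adjusted p = 0.00397).

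Genes for monomer binding, capping and turnover had 12 of 25 lower and 4 higher. Twf1 (twinfilin), a monomer-binding and capping protein, fell by 1.52 (adjusted p = 1.5e-04), and Capza2, a subunit of capping protein, by 1.18 (adjusted p = 4.0e-04). Eps8, which caps barbed ends, rose by 1.94 (adjusted p = 1.4e-05). Carmil1, which loosens capping protein, was 0.54 (SE 0.15, adjusted p = 0.0330). It was not called in 4 fits, with an adjusted p of 0.139 and 0.113 when M(CSF1) replicates 2 and 3 were left out in turn and 0.120 and 0.113 for M(CSF2) replicates 1 and 3, at 0.45 to 0.53.

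Other tropomyosins and cross-linkers had 8 of 14 measured genes higher and 2 lower. Lsp1, a leukocyte F-actin binding protein of podosomes, read 5.47, 5.46 and 5.05 on the M(CSF1) arrays and 8.86, 8.57 and 8.72 on the M(CSF2) arrays. It was 10.5-fold higher (95% interval 8.44 to 13.0, adjusted p = 2.2e-06), the largest rise in the 10 lists. Tagln2 (transgelin-2) rose by 1.49 (SE 0.07), while Lima1 (EPLIN) fell by 1.74 (SE 0.13) and the tropomyosin Tpm3 by 0.62 (SE 0.08). Adhesion plaque and podosome signalling genes were even, with 6 of 28 higher and 6 lower. The parvin gene Parvg rose by 2.55 (SE 0.20) and the podosome-inducing kinase Src by 1.70 (SE 0.13). Apbb1ip (RIAM), which brings talin to integrins, fell by 1.99 (SE 0.13), and the adaptor Lims1 (PINCH) by 0.99. Adjusted p for these 8 genes was at most 0.00101.

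Other formins had 4 of 10 lower and 2 higher, with Diaph3 falling by 2.44 (SE 0.15) and Inf2 rising by 1.19 (SE 0.12). The M(CSF2) mean of Diaph3, 3.49, lay close to the floor of 3.37, so the size of its fall is less certain. Diaph2 fell by 0.91 and Fmnl2 rose by 0.57. Of 14 other myosin chains 12 were not called. Myo1d, another class I chain, fell by 1.64 (SE 0.15), and the light chain Myl12b rose by 0.63 (SE 0.08). Muscle actins and smooth muscle genes had 1 of 8 called, Acta2 at 0.39 (SE 0.12, adjusted p = 0.0419). That call was lost in 5 fits, with an adjusted p of 0.153, 0.117 and 0.0630 when M(CSF1) replicates 1, 2 and 3 were left out in turn and 0.128 and 0.118 for M(CSF2) replicates 1 and 2, at 0.29 to 0.44.

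**Figure D4:**
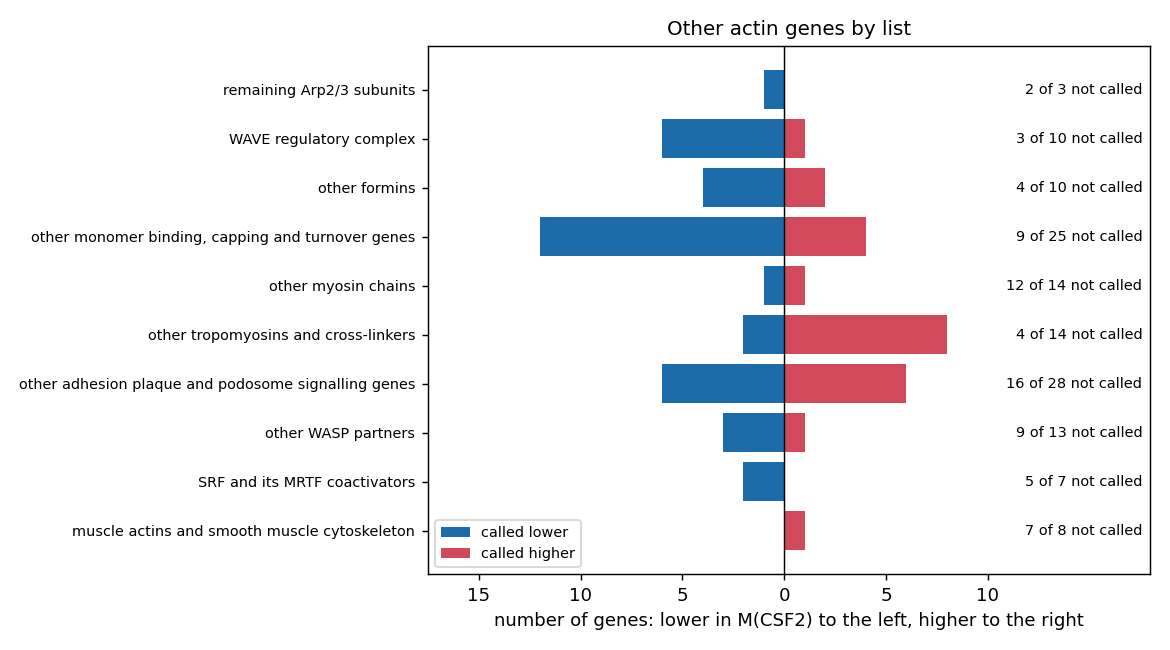
Number of genes called lower in M(CSF2) (blue, to the left) and higher (red, to the right) in 10 further lists of actin genes, with the number not called among those measured at the right. Monomer binding, capping and turnover genes show 12 lower and 4 higher, and other tropomyosins and cross-linkers show 2 lower and 8 higher.

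The labelled cell type was checked against markers. The 10 macrophage markers were all measured above the floor, with a summed signal on the linear scale of 16094 to 16650 on the M(CSF1) arrays and 15951 to 17051 on the M(CSF2) arrays. Of the 10, 4 were higher, among them Cd33 at 3.96 and Cd14 at 1.71, and 4 lower, among them Fcgr1 at -1.23 and Adgre1 at -1.18. The similar sums therefore do not mean that single markers were stable. Some markers of other cells moved with the groups. The 5 measured platelet markers had a summed signal of 244 to 316 against 2470 to 2536, with Pf4 and Ppbp higher, Gp9 lower and the defining Itga2b at 0.12 (95% interval -0.08 to 0.33, adjusted p = 0.361). The 11 neutrophil markers summed to 677 to 781 against 2604 to 2981, with 3 higher and 1 lower. Mmp8 (6.60 to 11.04) and S100a8 (6.09 to 8.46) rose on the log2 scale, Csf3r fell (8.88 to 7.31), and Ltf was called higher but lay at the floor in both groups. In all, 4 were at the floor in both groups, the defining Ly6g among them. The 10 mast cell and basophil markers summed to 98.5 to 120 against 518 to 602, with 4 higher. Hdc (3.85 to 8.27), Gata2 (4.54 to 7.06) and Kit (4.32 to 5.63) rose on the log2 scale. Of the 10, 6 were at the floor in both groups, among them the defining Cpa3 and Mcpt4 and also Mcpt8, the fourth called higher. The 8 dendritic cell markers summed to 171 to 193 against 2206 to 2714, with 3 higher. Itgax (5.78 to 10.84) and Ccr7 (5.17 to 9.10) rose on the log2 scale, and the third called higher, Clec9a, lay at the floor in both groups. Flt3, Xcr1, Cd209a and Batf3 were not called, and Zbtb46 was at 0.26 (95% interval 0.06 to 0.46, adjusted p = 0.0625). Sums on the linear scale weigh the brightest markers most. The median log2 differences of the platelet, neutrophil, mast cell and dendritic cell lists were only 0.12, 0.07, 0.22 and 0.15. Stromal markers summed to 242 to 307 against 289 to 359, with 2 higher and 1 lower of 10. These sums hide opposite changes on the log2 scale. Dcn (3.58 to 6.88) and Thy1 (4.34 to 4.68) rose, and Postn (6.38 to 3.47) fell. Lymphoid markers had 1 of 10 lower and erythroid markers 0 of 5 called. The part of other cells in the differences of the actin genes was not tested.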

How the data were processed

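RNA of 6 cultures, 3 per growth factor, was hybridised to Affymetrix Mouse Gene 1.0 ST arrays, 1 array each. The deposited values are on a log2 scale, per their range of 1.48 to 13.27 and array medians of 3.91 to 4.00. How the authors normalized them is not stated beyond MAS5, which the submitters' processing notes name. Of 28941 probe sets the platform annotation names 23410, 21789 of them for 1 gene and 1621 for several. For every symbol the probe set with the highest mean was kept, which gave 20189 tested probe sets, 684 of them naming several genes. Groups were compared with limma 3.58.1 in R 4.3.3 (lmFit, eBayes, 2-sided) with Benjamini-Hochberg adjustment over all of them, after tests on simulated data. Python 3.11.15 and pandas 2.3.3 prepared the tables. The number of arrays limits the precision. Every member is named. From each further list the 2 largest called rises and falls with groups that do not overlap, on probe sets naming 1 gene, are named. Some lists drawn up for the wider machinery are not reported here. The members and lists were chosen with earlier results of these data known. Alternatives covered normalization, centring, probe set choice, a filter on dim probe sets, the variance model, a replicate block and leaving out each array. RefSeq promoter windows were searched for 3 motifs on both strands.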

Additional observations from a re-analysis of the deposited data

How the results depend on the processing

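Under 15 alternatives, 27 of the 34 called members kept their direction and call, 7 lost the call in at least 1 and none changed sign. Of the 12 members that were not called, 5 passed in at least 1 alternative. The 9 alternatives that kept all arrays called 8 to 9 members higher and 22 to 26 lower, with a median difference of -0.41 to -0.33. Leaving out each array gave 8 to 10 higher, 20 to 25 lower and a median of -0.40 to -0.32. For the other actin genes the counts were 22 to 26 higher and 35 to 39 lower, and 17 to 22 and 27 to 37 with an array left out. Signs changed for 4 members that were not called. Gsn was 0.050 after quantile normalization and ran from -0.094 to 0.010 with an array left out. Tpm1 was 0.027 after quantile normalization. Wasl ran from -0.17 to 0.011 and Vil1 from -0.061 to 0.056 with an array left out. The cause of these changes was not tested.

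The call of Hcls1 was lost after quantile normalization (adjusted p = 0.0966), with probe sets naming 1 gene (0.0503), with every probe set tested (0.0505), with dim probe sets left out (0.05003) and with robust variance (0.0550). Wipf1 was lost with every probe set tested (0.0506), and Coro1c passed with dim probe sets left out (0.0347) and with an intensity trend (0.0436). Carmil1 was lost after centring (0.0520). With the replicate number as a block, 9 members were called higher and 22 lower, and of the other actin genes 23 were higher and 36 lower. Under the block Hcls1 (0.133), Wipf1 (0.0529), Pxn (0.0629) and Acta2 (0.0534) were not called. The labels give same-numbered arrays only a shared number and do not say whether they were paired. Correlations of their deviations from the group means were 0.00231, -0.0435 and -0.251 for replicates 1, 2 and 3. With 3 arrays per group these values cannot settle whether the arrays were paired. Among members no group mean was at or below the floor of 3.37.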

Other observations

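Exactly equal values on 2 or more arrays occurred for 7125 of the 20189 tested probe sets (35.3%) and for 3 of the 46 measured members. Those members were Enah, Wasl and Fmnl1, of which only Enah was called.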
